A study of Mus musculus and Rattus norvegicus with 18 samples.

Results

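The mitochondrial ribosomal protein genes were the rows whose symbol is Mrpl or Mrps followed by a number and at most 1 further letter. They made up 78 of 22322 genes in the table of mouse tubular epithelial cells (TECs) and 75 of 22050 genes in the table of the rat kidney fibroblast line NRK49F, with the row of most counts taken where a symbol had several. In TECs treated with TGF-β, 51 of the 78 genes fell and 2 rose against control, with a median log2 change of -0.24. In NRK49F cells treated with TGF-β, 33 of 72 tested genes fell and 13 rose, with a median of -0.18. With narciclasine before TGF-β, 29 genes rose and 7 fell against TGF-β alone in TECs, and 51 rose and 2 fell in NRK49F, where the median log2 change was 0.58.

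Mitochondria carry their own ribosome, which translates the few mRNAs of the mitochondrial genome, all of them for subunits of the respiratory chain and the ATP synthase. The ribosomal RNAs of this particle come from the mitochondrial genome, whereas its proteins are nuclear-encoded, made on cytosolic ribosomes and imported. Mrps proteins were named for the small subunit, which binds mRNA and decodes it, and Mrpl proteins for the large subunit, which joins amino acids and releases the growing chain at the inner membrane. Many have a bacterial counterpart and others are found in mitochondria only. Kidney tubular epithelium is rich in mitochondria.

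Poly(A) RNA of both cell kinds was sequenced under 3 conditions, with 3 libraries that the labels call biological replicates in each of the 6 groups. The TECs were primary tubular epithelial cells of mice, for which no strain or age is given, and NRK49F is a single established rat line. Cells of every group, controls included, went 6 h without serum. The control groups received neither agent, the TGF-β groups received 5 ng/ml TGF-β1 for 24 h, and the remaining groups received 20 nM narciclasine, an alkaloid of daffodils known to bind the ribosome, from 2 h before the same TGF-β1. No group received narciclasine alone, so its effect is measured in the presence of TGF-β1 only. The same TGF-β libraries enter 2 comparisons of each cell kind and the same control libraries enter 2, so the comparisons of 1 cell kind are not independent. Species and cell kind cannot be told apart.

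Libraries held 16652016 to 25192716 counts in TECs and 14695732 to 18463855 in NRK49F. Epithelial markers summed to between 5759 and 7420 CPM, read counts scaled to the size of the library, in TECs. The 8 markers of the proximal tubule summed to between 135 and 137 CPM in control and between 75.8 and 77.7 CPM with TGF-β. With both agents they summed to between 144 and 149 CPM, but single markers did not all follow the sum. Of the 5 tested, 3 were below control and 1 above with both agents (median log2 difference -1.21). Of the 8, the transporter genes Slc34a1, Slc5a2, Slc5a12 and Slc22a6 stayed under 1 CPM in every group mean. Fibroblast markers in TECs summed to at most 93.3 CPM in control, 347 CPM with TGF-β and 131 CPM with both agents, with Dcn, Lum and Thy1 under 1 CPM, and leukocyte markers to at most 31, 51.8 and 21.5 CPM, with Tyrobp under 1 CPM. Over the 3 TEC groups endothelial markers summed to between 101 and 119 CPM and podocyte markers to between 104 and 119 CPM. The part of these markers in the results was not tested. In NRK49F fibroblast markers summed to between 10076 and 11720 CPM in control and between 33758 and 35808 CPM with TGF-β. With both agents they summed to between 16767 and 17380 CPM, with Dcn and Thy1 under 1 CPM in every group mean. Epithelial markers there summed to between 1202 and 1259 CPM in control and between 668 and 775 CPM with TGF-β. With both agents that sum was between 573 and 626 CPM. Cdh1, Cdh16, Epcam, Krt18 and Pax8 were under 1 CPM in every NRK49F group mean. The second NRK49F library of each group stood apart. Squared differences in pairs with a second library averaged 7.67 to 20.5 times the variance of counting per gene. They averaged 2.38 to 3.33 times that variance for the other NRK49F pairs and 1.86 to 3.78 times for TEC pairs. Without the second libraries, 31 genes fell and 17 rose with TGF-β in NRK49F, 53 rose and 2 fell with narciclasine, and 53 were above and 2 below control.

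The genes together took a small share of each library, between 0.156% and 0.296% of its counts. Their summed level in TECs was 2278, 2325 and 2279 CPM in the control libraries, 1944, 1914 and 1973 CPM with TGF-β, and 2140, 2113 and 2214 CPM with TGF-β and narciclasine. The 3 TEC groups did not overlap, with control highest and TGF-β lowest. In NRK49F the sum was 2134, 1957 and 2107 CPM in control, 1672, 1647 and 1750 CPM with TGF-β, and 2853, 2739 and 2992 CPM with both agents. These groups did not overlap either, but here the cells with both agents were highest. CPM are scaled to the TMM-normalized library size. In bulk RNA, fewer cells of a type and less RNA per cell cannot be told apart.

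**Figure D1:**
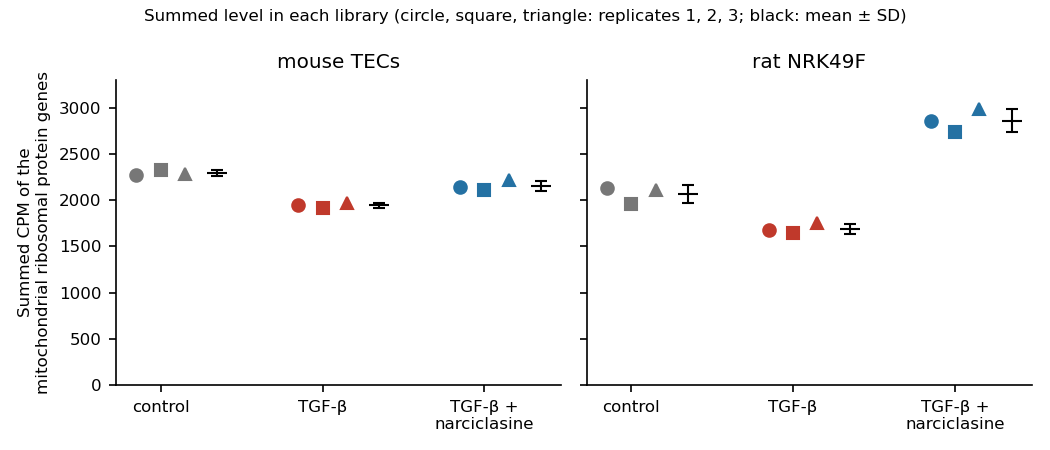
Summed CPM (linear axis from 0) of the mitochondrial ribosomal protein genes in each library of mouse TECs (left) and rat NRK49F (right) under the 3 conditions, with circles, squares and triangles for replicates 1, 2 and 3 and the mean ± SD (n = 3) in black. TGF-β is lowest in both cell kinds, and the cells with both agents lie between 2113 and 2214 CPM in TECs but between 2739 and 2992 CPM in NRK49F.

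In the mouse annotation (GRCm38, GENCODE vM21) the 78 genes lay on 17 of 21 chromosomes, with 11 of them on chromosome 11. A protein-coding gene started on the opposite strand within 1000 bases upstream of 18 of the 78 genes (23.1%), against 1477 of 21731 protein-coding genes (6.80%). Mrpl49 and the ribosomal protein fusion gene Fau start 59 bases apart, and Mrps27 and Ptcd2, a pentatricopeptide-repeat gene of mitochondrial RNA processing, start 81 bases apart. Exons of 22 genes overlapped those of another gene, by at least 20% of exon length in 7 of them, among them Mrpl47 (24.2%, with Ndufb5 and Actl6a on the opposite strand). The library kit named in the labels does not mark strand, so reads in such overlaps cannot be assigned.

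Per kilobase of exon, the highest levels in control TECs were those of Mrpl12 (36.7 CPM per kb), which sits in the flexible stalk that recruits translation factors, followed by Mrpl18 (29.8), Mrpl34 (27.6) and Mrps21 (27.5). The lowest were Mrpl48 (2.16), Mrps35 (2.45) and Mrpl23 (2.61), around a median of 11.4 CPM per kb. Without length correction, Mrpl38, Mrpl3, Mrpl37 and Mrps5 held the most counts in TECs, and Mrpl45, Mrpl10, Mrpl37 and Mrps22 in NRK49F, for which no gene lengths were used. Mrpl45, which tethers the ribosome to the inner membrane beside the exit of the growing chain, was at 143 ± 22.5 CPM in control NRK49F (SD, n = 3). Rat Mrpl1 had the fewest counts of the tested genes, with 0, 1.08 and 1.34 CPM in the control libraries.

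The promoters of 4 genes that changed in both cell kinds are shown because they carry motifs of factors known to activate nuclear genes for mitochondrial proteins. They run 5′ to 3′ on the gene's strand, 250 bases up to the RefSeq start (GRCm38.p6), in lower case with the motif matches in capitals. Mrps22 (chr9:98601680-98601929, minus strand) holds CCGGAAGT, the core bound by ETS factors such as GABP, and Mrps27 (chr13:99344536-99344785, plus strand) holds it on the opposite strand. Mrpl45 (chr11:97315466-97315715, plus strand) holds the NRF1 motif, GCGCA and GCGC with any 1 base between them, at 2 places, and Mrpl12 (chr11:120484387-120484636, plus strand) holds it at 1 place.
Mrps22: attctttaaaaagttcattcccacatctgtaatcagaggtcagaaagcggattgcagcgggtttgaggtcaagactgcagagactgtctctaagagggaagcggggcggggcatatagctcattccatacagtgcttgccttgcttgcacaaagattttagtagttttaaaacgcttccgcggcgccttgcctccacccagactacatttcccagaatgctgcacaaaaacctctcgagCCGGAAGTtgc
Mrps27: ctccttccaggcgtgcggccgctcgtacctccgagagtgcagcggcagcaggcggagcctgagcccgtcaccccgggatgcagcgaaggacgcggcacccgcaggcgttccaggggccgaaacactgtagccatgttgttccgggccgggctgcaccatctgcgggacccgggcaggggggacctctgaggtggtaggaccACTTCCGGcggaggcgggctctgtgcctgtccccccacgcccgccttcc
Mrpl45: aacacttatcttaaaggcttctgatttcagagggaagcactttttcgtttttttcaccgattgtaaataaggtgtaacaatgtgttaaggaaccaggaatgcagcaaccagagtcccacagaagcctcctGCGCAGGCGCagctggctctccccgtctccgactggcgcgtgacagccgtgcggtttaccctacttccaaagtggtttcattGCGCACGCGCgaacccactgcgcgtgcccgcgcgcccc
Mrpl12: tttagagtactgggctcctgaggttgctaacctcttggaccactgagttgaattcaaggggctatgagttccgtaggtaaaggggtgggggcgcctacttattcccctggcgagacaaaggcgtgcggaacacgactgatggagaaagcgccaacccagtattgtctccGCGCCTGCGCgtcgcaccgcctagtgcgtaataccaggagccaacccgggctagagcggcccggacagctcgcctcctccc

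RefSeq promoters (250 bases before to 50 after the start) matched 69 of the 78 mouse genes, with 75 entries, and both strands were searched. The NRF1 motif was in 17.3% of these entries and in 6.38% of all 21263 promoters. CCGGAAGT was in 16% against 5.15%, and AAGATGGC, bound by YY1, in 16% against 3.05%. At least 1 of the 3 was in 34 of 75 entries (45.3%) against 2871 of all (13.5%), and the matches of the 3 motifs did not overlap each other in any entry. Other motifs were closer to the background, with CACGTG in 9.33% against 7.84%, CCAAT in 40% against 38.2%, GGGCGG in 52% against 46.2% and TATAAA in 6.67% against 12.6%. A match is a description of letters only. With TGF-β in TECs, 8 of 12 genes with CCGGAAGT fell (median -0.29), against 36 of 57 matched genes without it (-0.23). With AAGATGGC 9 of 12 fell (-0.32), against 35 of 57 without it (-0.22). With the NRF1 motif 8 of 13 fell (-0.20), against 36 of 56 without it (-0.25). Of the 78 genes 51 fell, and of all tested TEC genes 34.9%.

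The comparison of TGF-β with control asks how the cytokine changes these genes in each cell kind. In TECs the genes fell as a group by little: the median was 0.848 of control, and 20 fell by significantly more than 1.2-fold (glmTreat), as 40.5% of all genes did in either direction. A gene was called changed at an adjusted p under 0.05 in edgeR's quasi-likelihood test, with Benjamini-Hochberg adjustment over all tested genes of that cell kind. Of all 13244 tested TEC genes, 34.9% fell and 34.1% rose (69% in either direction), with a median log2 change of -0.0049, while of the 78 genes 51 fell and 2 rose. Scaled to total counts the median of all genes moved to -0.13 in TECs and -0.24 in NRK49F, where it is -0.05 with TMM. The median of the 78 genes lay 0.23 below that of all genes in TECs. A change of scaling shifts all genes of a library alike, so it cannot test this gap.

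Both subunits took part in the TEC decrease. Of the small subunit, 9 of 17 genes with a bacterial counterpart and 6 of 9 found in mitochondria only fell, with medians of -0.26 and -0.25. Of the large subunit, 21 of 30 with a counterpart and 15 of 21 without fell, with medians of -0.24 and -0.23, and 1 of each rose. Total-count scaling moves all TEC genes down in this comparison, so it could only lower these 4 medians.

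Mrpl42, a large-subunit protein found in mitochondria only, had the largest decrease in TECs. It was at 41.5, 40 and 39 CPM in control, 23.5, 21.6 and 23.5 CPM with TGF-β and 28.7, 29.1 and 28.9 CPM with both agents. The groups did not overlap, and the cells with both agents stayed between the others. The log2 change with TGF-β was -0.81 ± 0.06 (SE; adjusted p = 9.8e-16).

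Mrps16, a small-subunit protein whose human gene is mutated in a combined oxidative phosphorylation deficiency, was at 11.4, 10.7 and 10.4 CPM in control TECs and 6.81, 6.11 and 7.85 CPM with TGF-β. All 3 treated libraries were below the controls, and the log2 change was -0.63 ± 0.11 (adjusted p = 3e-06). Mrpl18, which helps import 5S rRNA in human cells, fell by 0.62 ± 0.06 on the log2 scale (adjusted p = 5.2e-12). Mrpl35 and Mrps22 fell by 0.60 ± 0.06 and 0.59 ± 0.06 (adjusted p = 8.4e-11 and 4e-12).

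The rises of Mrpl24 (0.15) and Mrpl43 (0.14) in TECs depended on single libraries. Both calls were lost without the third control library (adjusted p = 0.053 and 0.11) or the second TGF-β library (adjusted p = 0.085 and 0.1) and with total-count scaling, under which 67 genes fell. Leaving out the third TGF-β library left 1 rising gene, and DESeq2 called 1. Exons of Mrpl24 overlap those of Rrnad1, and exons of Mrpl43 those of Twnk. Markers of proliferation moved with the group: the summed level of 16 cell cycle genes lay between 2105 and 2126 CPM without and between 420 and 442 CPM with TGF-β, and all 16 fell. Their part in the change of the ribosomal genes was not tested.

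**Figure D2:**
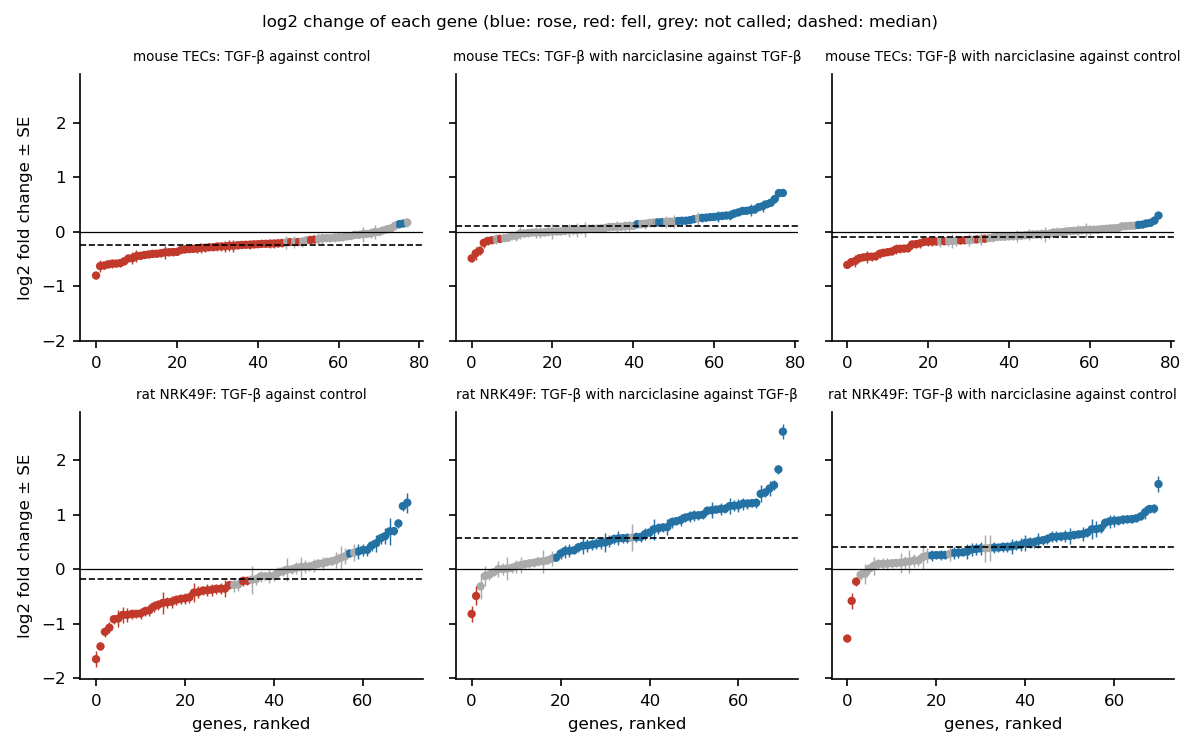
Log2 fold change ± SE of each mitochondrial ribosomal protein gene, ranked, for the 3 comparisons (columns) in TECs (top) and NRK49F (bottom, without Mrpl1), with genes that rose in blue, genes that fell in red and the others in grey; the dashed line is the median of the tested genes. Values are TMM-scaled. The TEC changes with TGF-β reach -0.81, and the NRK49F changes with narciclasine reach 2.53.

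In NRK49F the response to TGF-β was wider and went both ways. Single genes reached a log2 change of -1.65 and 1.22, and 4 fell and 2 rose by at least 2-fold, whereas the largest TEC change was -0.81. The share of all genes past 2-fold was not counted. Beyond 1.2-fold (glmTreat) 23 of the 72 fell and 8 rose. All genes were wider in NRK49F too, with 55.5% past 1.2-fold in either direction against 40.5% in TECs. Of all 11444 tested NRK49F genes, 38% fell and 33.7% rose (71.8% in either direction), and of the 72 tested ribosomal genes 33 fell and 13 rose. With total-count scaling 42 fell and 7 rose, so the share of rising genes among those called went from 28.3% to 14.3%, and from 47% to 35% among all genes. The median lay 0.13 below that of all genes, a gap that a change of scaling cannot test because it shifts all genes alike. Mrpl33, Mrpl36 and Mrps21l were too low to test.

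By subunit the genes moved unevenly, where 38% of all NRK49F genes fell and 33.7% rose. The shares that fell among genes with a bacterial counterpart were close to that of all genes. Of the large-subunit genes found in mitochondria only, 12 fell and 2 rose (median -0.35), and of the large-subunit genes with a bacterial counterpart 10 of 24 fell and 5 rose (-0.13). Of the small-subunit genes with a counterpart 7 fell and 2 rose (-0.21). The 9 small-subunit genes found in mitochondria only had a median of 0.04, with 4 lower and 3 higher, which became -0.14 with total-count scaling.

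Mrpl47, which lies near the exit of the protein tunnel, changed most. It was at 30.7, 23.4 and 35.6 CPM in control NRK49F, 8.52, 10.7 and 9.53 CPM with TGF-β, and 53, 54 and 58.4 CPM with both agents. Every TGF-β library was below every control, and every library with both agents was above every control. The log2 change was -1.65 ± 0.14 with TGF-β (adjusted p = 2.1e-07) and 2.53 ± 0.14 with narciclasine against TGF-β alone (adjusted p = 6.3e-09).

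Mrpl13, a large-subunit protein with a bacterial counterpart, was at 95, 101 and 89.9 CPM in control NRK49F, 33.1, 36.8 and 37.6 CPM with TGF-β and 40, 37.3 and 41.6 CPM with both agents. The control libraries were far above the other 6, which overlapped each other. It fell by 1.41 ± 0.07 on the log2 scale with TGF-β (adjusted p = 2.2e-10), and the difference with narciclasine was 0.14 ± 0.08 (adjusted p = 0.11). Mrpl35 fell by 1.15 ± 0.09 (adjusted p = 1.4e-08) and Mrpl10, the stalk protein that holds Mrpl12, by 1.07 ± 0.10 (adjusted p = 4.5e-07).

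Mrpl12, the stalk protein that also binds the mitochondrial RNA polymerase in human cells, rose in NRK49F. Its levels were 20.3, 23.9 and 21.9 CPM in control, 51, 45 and 51.7 CPM with TGF-β and 47.3, 46 and 49.6 CPM with both agents. The treated groups overlapped each other and were far above control, with a log2 change of 1.16 ± 0.08 for TGF-β (adjusted p = 8.6e-09). In TECs it was at 54.8, 58.1 and 55.8 CPM in control and 38, 38 and 43.8 CPM with TGF-β, all 3 below control (-0.49 ± 0.05, adjusted p = 2.1e-10).

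Mrps6, a protein of the small subunit's platform, was low in NRK49F, with 3.36, 5 and 3.36 CPM in control and 10.4, 8.65 and 8.33 CPM with TGF-β. Its log2 change was 1.22 ± 0.18 (adjusted p = 2.5e-05). Mrpl20 rose by 0.84 ± 0.08 (adjusted p = 1.4e-07) and Mrpl17 by 0.70 ± 0.07 (adjusted p = 4.8e-07), both large-subunit proteins with bacterial counterparts. In NRK49F the cell cycle genes moved the other way from TECs, from 1079 to 1542 CPM in control to 2395 to 2571 CPM with TGF-β, and 13 of 15 rose.

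The next comparison, of both agents with TGF-β alone, asks what narciclasine changes in TGF-β-treated cells. In TECs, 29 of the 78 genes rose and 7 fell (all genes, 26.8% up, 25.5% down, 52.3% either way), by a median of 1.07-fold. The median log2 change was 0.10, against 0.0019 for all genes, and 0.064 without the second TGF-β library. By more than 1.2-fold, 9 rose and 1 fell, against 17.1% of all genes in either direction. Total-count scaling gave 34 higher and 3 lower, so the higher share of called genes went from 80.6% to 91.9%.

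Mrps22, a small-subunit protein found in mitochondria only and mutated in a human mitochondrial disease, was among the largest rises in TECs. It was at 41.1, 45.7 and 44.3 CPM in control, 29.4, 29 and 29.1 CPM with TGF-β, and 46, 50.8 and 46.5 CPM with both agents. All TGF-β libraries were below the other 6, and the log2 change with narciclasine was 0.71 ± 0.06 (adjusted p = 6.8e-14). Mrpl35, a large-subunit protein with a bacterial counterpart, was at 27.9, 29 and 29.9 CPM, then 18.4, 20.7 and 18.6 CPM, then 31, 31.4 and 31.2 CPM in the same order (0.71 ± 0.06, adjusted p = 3.7e-12).

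Mrpl47 rose by 0.60 ± 0.07 in TECs (adjusted p = 4.2e-09), from 15.8, 14.4 and 15.1 CPM with TGF-β to 23.1, 23.1 and 22.6 CPM with both agents, beyond the 18.9, 20.8 and 19.8 CPM of control. Mrps30, which lies in the large subunit despite its name, rose by 0.53 ± 0.05 (adjusted p = 6.5e-11) and Mrpl19 by 0.50 ± 0.05 (adjusted p = 1.6e-10). By group, 8 of 17 and 3 of 9 small-subunit genes and 8 of 30 and 10 of 21 large-subunit genes rose, in the order with and without bacterial counterpart. Of all TEC genes 26.8% rose, close to the share among the 30.

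Mrps6 went down in TECs with narciclasine, at 32.3, 29.8 and 33.7 CPM with TGF-β and 22.4, 21.9 and 24.2 CPM with both agents. The libraries with both agents were below all 6 others, and the log2 change was -0.49 ± 0.06 (adjusted p = 2.9e-08). Exons of mouse Mrps6 overlap those of Gm49711 and Slc5a3, on the same strand, over 19.9% of their length together. Mrpl41 fell by 0.40 ± 0.12 (adjusted p = 0.0048) and Mrpl53, whose exons another gene covers to 88%, by 0.35. Leaving out the second library with both agents left 4 of the 7 lower genes. Cell cycle genes summed to 903 to 919 CPM with both agents, and their part was not tested.

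**Figure D3:**
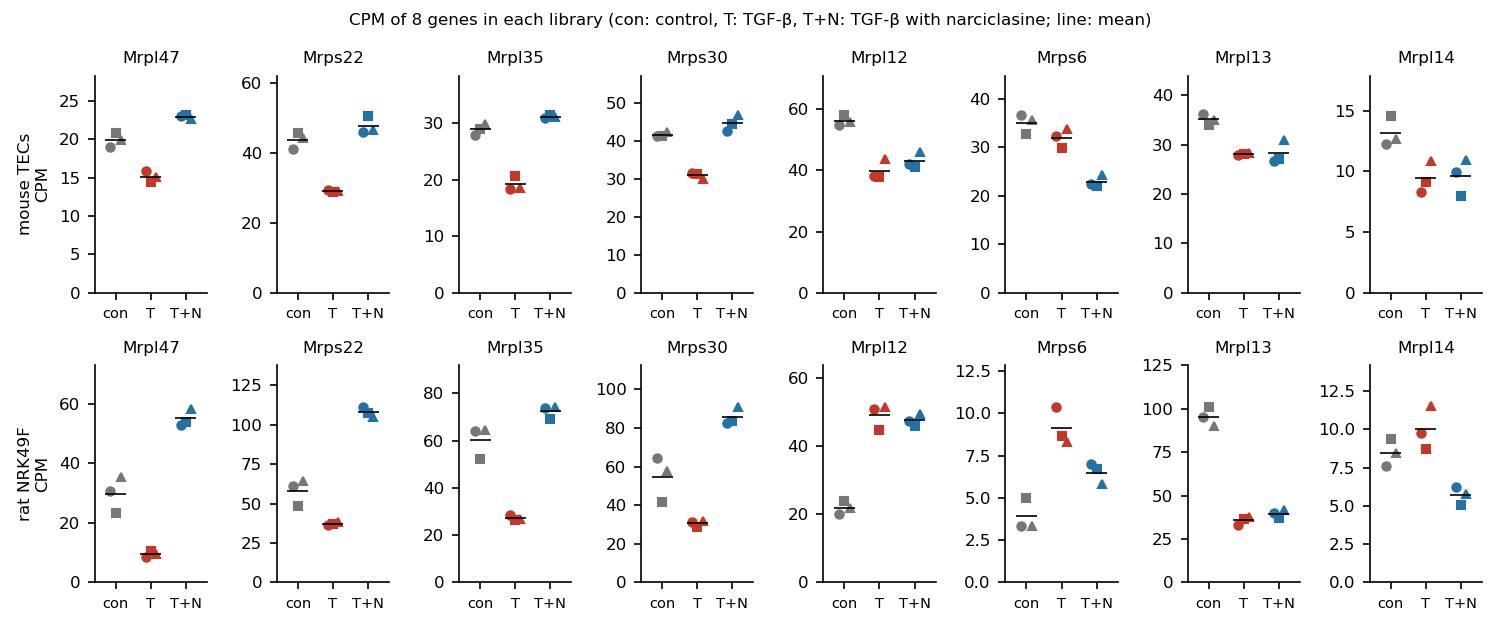
CPM of 8 genes in each library of TECs (top) and NRK49F (bottom) in control (con), TGF-β (T) and TGF-β with narciclasine (T+N), with circles, squares and triangles for replicates 1, 2 and 3 and a line at each group's mean; axes start at 0 and differ between panels. Mrpl47, Mrps22, Mrpl35 and Mrps30 are lowest with TGF-β in both rows, whereas Mrpl12 is highest in control TECs and lowest in control NRK49F.

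In NRK49F, narciclasine moved the genes further. Against TGF-β alone 51 of 72 rose and 2 fell (all genes, 31.6% up, 31.1% down, 62.7% either way). Of the 51, 34 rose by at least 1.5-fold and 19 by at least 2-fold, folds for which the share of all genes was not counted. Beyond 1.2-fold (glmTreat) 43 of the 72 rose and 1 fell. All genes moved further too, with 42.7% past 1.2-fold in either direction against 17.1% in TECs. The median was 1.49-fold, against a log2 median of -0.002 for all genes. The rise covered 12 small-subunit genes with and 6 without a bacterial counterpart (medians 0.57 and 0.41) and 15 and 18 large-subunit genes (0.58 and 0.75). Total-count scaling moves all genes up in this comparison and so could only raise these medians. Under it 55 genes rose and 2 fell.

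Mrpl49, which has a divergent partner in Fau in the mouse, had the second largest rise. It was at 27.9, 24.7 and 27.7 CPM in control, 14.1, 14 and 14.6 CPM with TGF-β and 48.7, 50 and 53.7 CPM with both agents. No groups overlapped, and the change was 1.83 ± 0.08 (adjusted p = 2.7e-10). Mrps22 went from 36.3, 36.8 and 38 CPM with TGF-β to 111, 108 and 105 CPM, above the 61.3, 48.4 and 64.5 CPM of control (1.54 ± 0.09, adjusted p = 2.7e-09).

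Mrps30 was at 64.2, 41.8 and 57.7 CPM in control NRK49F, 31.1, 28.9 and 31.8 CPM with TGF-β and 82.7, 83.6 and 90.7 CPM with both agents. The second control library was the lowest of the 3 and still above all TGF-β libraries, and the change with narciclasine was 1.48 ± 0.13 (adjusted p = 2.6e-06). Mrpl35 was at 64.3, 52.2 and 64.5 CPM in control, 28.7, 26.3 and 26.7 CPM with TGF-β and 73.7, 69.4 and 74.3 CPM with both agents (1.41 ± 0.09, adjusted p = 3.9e-09).

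The promoters shown for the mouse belong to genes whose rat counterparts also changed. Mrpl45 was at 159, 117 and 153 CPM in control NRK49F, 83.4, 86.5 and 82.2 CPM with TGF-β and 199, 188 and 196 CPM with both agents (1.21 ± 0.09 with narciclasine, adjusted p = 1.7e-07). Mrps27, a pentatricopeptide-repeat protein of the small subunit, was at 43.2, 34.2 and 40.6 CPM, then 21.2, 22.6 and 23.6 CPM, then 52.5, 49.1 and 55.8 CPM (1.22, adjusted p = 3.9e-08). In both genes the TGF-β libraries were lowest and those with both agents highest, with no overlap. In TECs the same 2 changes were 0.23 and 0.21.

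Mrpl14, which binds the assembly factor Malsu1, fell with narciclasine in NRK49F. It was at 9.77, 8.72 and 11.5 CPM with TGF-β and 6.22, 5.05 and 5.76 CPM with both agents, below the 7.62, 9.37 and 8.43 CPM of control (-0.82 ± 0.15, adjusted p = 0.00027). Mrps6 was the other gene called lower (-0.49 ± 0.17, adjusted p = 0.024), a call lost without the first TGF-β library (adjusted p = 0.105) or the third with both agents (adjusted p = 0.0891). The summed cell cycle genes were at 1151 to 1361 CPM with both agents, against 2395 to 2571 CPM with TGF-β, and their part was not tested.

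Measured against control rather than TGF-β, the cells with both agents differed between the cell kinds. In TECs 28 genes were below control and 6 above (all genes, 30.6% down, 32.4% up, 63% either way), with a median log2 difference of -0.093. Mrpl38 was the highest above control, at 65, 68.8 and 70.4 CPM against 55.7, 54.3 and 56.5 CPM (0.29 ± 0.05, adjusted p = 5e-07). Mrps6 was the lowest (-0.61 ± 0.06, adjusted p = 5e-11), and Mrpl42 was still 0.47 ± 0.06 lower on the log2 scale (-0.47, adjusted p = 1.3e-09). Leaving out the third control library or the first TGF-β library left 3 genes above control. Total-count scaling gave 42 below and 1 above, so the share above among called genes went from 17.6% to 2.33%.

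In NRK49F 49 genes were above control and 3 below (all genes, 33.4% each way, 66.8% together), by a median of 1.33-fold. Mrps10, a small-subunit protein, was at 9.65, 6.52 and 7.58 CPM in control and 23.8, 20.5 and 26.2 CPM with both agents, with no overlap (1.56 ± 0.15, adjusted p = 1.7e-07). Mrps2, a small-subunit protein mutated in a human mitochondrial disease, was 1.11 ± 0.08 higher on the log2 scale (adjusted p = 1.3e-08) and Mrpl12 1.11 ± 0.08 (adjusted p = 1.6e-08). Mrpl13 was lower by far (-1.27 ± 0.07, adjusted p = 7.3e-10), followed by Mrpl14 (-0.58 ± 0.15, adjusted p = 0.0037). The call of Mrpl52 (-0.22) was lost in 4 of the omissions of single libraries.

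Mrpl15 was at 40.6, 40.9 and 41.5 CPM in control NRK49F, 38, 37.1 and 37.8 CPM with TGF-β and 81.7, 80.6 and 79.3 CPM with both agents. It was thus near its control level with TGF-β (-0.13) and 0.97 ± 0.06 above control on the log2 scale with both agents (adjusted p = 1.3e-09). Mrps2 was likewise highest with both agents, while its control and TGF-β libraries overlapped, with 49.9, 39.6 and 48 CPM, then 49.4, 47.3 and 51.3 CPM, then 105, 93.9 and 97.6 CPM. Mrpl13, Mrpl12 and Mrpl20 form the other pattern, with TGF-β groups and groups with both agents close together and away from control. Mrps12, the protein at the decoding site, passed the test in none of the 6 comparisons, with log2 differences between -0.05 and 0.13 (adjusted p of 0.33 and above).

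Over the 72 genes tested in both tables, 48 fell with TGF-β in TECs (66.7%) and 33 in NRK49F (45.8%), and 25 fell in both. That is 75.8% of the NRK49F list and 52.1% of the TEC list, little above the share of all 72 genes that fell in the other cell kind. Among them were Mrps22, Mrpl35, Mrpl47, Mrps30, Mrpl45 and Mrps27. The sizes of the changes were nearly unrelated across genes (Pearson's r = 0.08, Spearman's rho = 0.10, n = 72 genes, which are not independent replicates). With narciclasine, 22 genes rose in both, 75.9% of the 29 in TECs and 43.1% of the 51 in NRK49F, where 70.8% of all 72 genes rose in NRK49F and 40.3% in TECs. The sizes of the narciclasine changes had r = 0.57 (rho = 0.52).

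Opposite calls with TGF-β, lower in TECs and higher in NRK49F, were made for Mrpl12, Mrpl17, Mrpl18, Mrpl28, Mrps26 and Mrps31. Of these, the NRK49F call was lost without a single library for Mrpl18 (0.36; without the first control, adjusted p = 0.0588, or the third TGF-β library, 0.0654) and for Mrps26 (0.33; in 5 of the 9 omissions, adjusted p up to 0.214). Mrpl17 was at 46.8, 46 and 44.8 CPM in control TECs and 40.9, 38.2 and 36.9 CPM with TGF-β, all 3 below control. In NRK49F it went from 40.7, 45.4 and 43.8 CPM to 67.8, 66.2 and 77.7 CPM, all 3 above control.

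A fit over all 18 libraries tested the difference itself, for the 74 ribosomal genes found once in both tables. Its filter ran over all 6 groups and could keep genes low in 1 cell kind, also among all genes tested. Of the 74, Mrpl33 and Mrpl36 were too low to test in NRK49F alone. The TGF-β effect differed in 42 of the 74, being higher in NRK49F for 22 and lower for 20 (all 12135 genes tested, 30.2% and 31.3%, together 61.5%). The largest differences, given as the NRK49F minus the TEC log2 change, were 1.69 ± 0.10 for Mrpl12 (adjusted p = 2.8e-14) and -1.22 ± 0.15 for Mrpl47 (adjusted p = 8.7e-08). The narciclasine effect was higher in NRK49F for 42 genes and lower for 4 (all genes, 19.9% and 27.1%, together 46.9%), with a median difference of 0.41 against -0.06 for all genes. Mrpl47 (1.87 ± 0.15, adjusted p = 6e-11) and Mrpl49 (1.58 ± 0.11, adjusted p = 2.1e-12) led the 42. Of the 4, Mrpl36 had nearly no rat counts, and 2 remained without the second TEC library of TGF-β or of both agents, the third NRK49F library of TGF-β, or the second or the third NRK49F library of both agents.

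**Figure D4:**
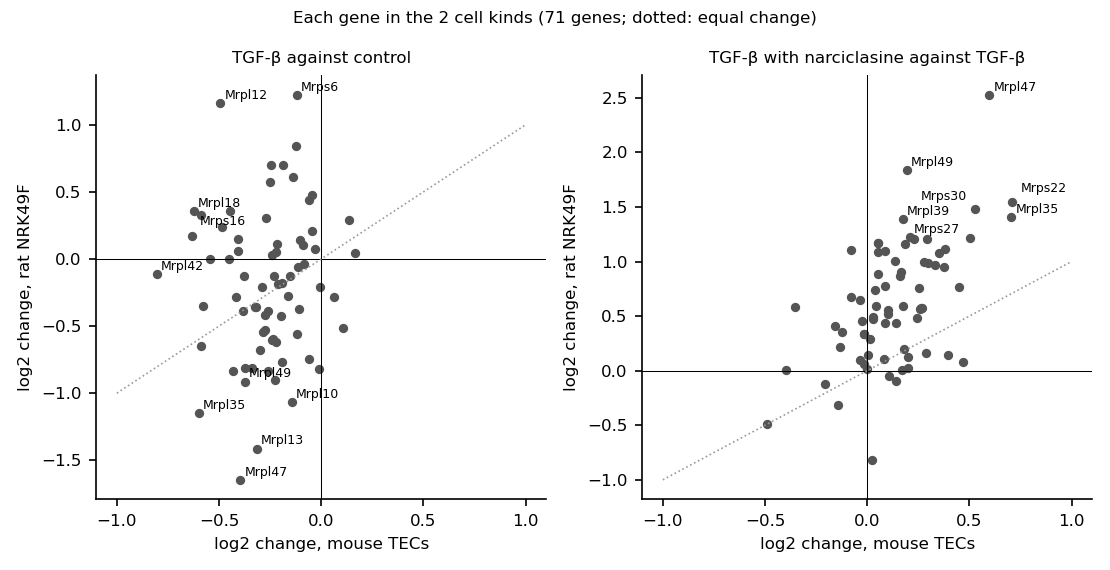
Log2 change of 71 mitochondrial ribosomal protein genes in mouse TECs (x axis) and rat NRK49F (y axis), 1 point per gene, for TGF-β against control and for narciclasine in TGF-β; the dotted line marks equal change and Mrpl1 is not drawn. Values are TMM-scaled. Mrpl12 lies at -0.49 and 1.16 with TGF-β, and Mrpl47 at 0.60 and 2.53 with narciclasine.

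Further genes with known roles include the stalk proteins. Mrpl10 was at 119, 90.4 and 116 CPM in control NRK49F, 53.2, 47.1 and 54.6 CPM with TGF-β and 122, 109 and 117 CPM with both agents. The TGF-β libraries stood alone below the other 6, and the narciclasine change was 1.17 ± 0.10 (adjusted p = 3.2e-07), whereas the TGF-β change in TECs was -0.15, a call lost without the second or the third control (adjusted p = 0.115 and 0.0727) or the third TGF-β library (adjusted p = 0.195). Mrpl11, another protein at the base of the stalk, was tested in TECs only, at 31.3 to 34.3 CPM in control and 32.7 to 35.1 CPM with TGF-β (log2 change 0.04 ± 0.06, adjusted p = 0.54).

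Near the tunnel exit, Mrpl23 was at 36.5, 35.1 and 36.4 CPM in control NRK49F, 26, 25.9 and 30.6 CPM with TGF-β and 52.2, 52 and 60 CPM with both agents. The 3 groups did not overlap, and the narciclasine change was 0.99 ± 0.08 (adjusted p = 1.2e-07). Mrpl3, beside the catalytic centre and mutated in a human mitochondrial disease, differed little, with 0.20 ± 0.05 in TECs (adjusted p = 0.00062) and 0.12 ± 0.07 in NRK49F (adjusted p = 0.16) for narciclasine. Mrpl58, a peptidyl-tRNA hydrolase that frees stalled ribosomes and is also part of the large subunit, was at 14.5, 14.7 and 14.8 CPM in control NRK49F, 14.7, 13.5 and 16.8 CPM with TGF-β and 19.6, 20 and 22.7 CPM with both agents. Only the libraries with both agents stood apart there (0.47 ± 0.10 against TGF-β, adjusted p = 0.0011).

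The 3 homologs of bacterial S18 all fell with TGF-β in both cell kinds. Mrps18a, which sits in the large subunit, changed by -0.24 in TECs and -0.60 in NRK49F, Mrps18b by -0.32 and -0.36, and Mrps18c by -0.26 and -0.83. The TEC call of Mrps18c was lost in 6 of the 9 omissions of single libraries (adjusted p up to 0.268). With narciclasine the NRK49F changes were 0.87, 1.11 and 1.16 in the same order, and the TEC changes were 0.16, 0.38 and 0.18, of which that of Mrps18b passed the test.

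Among small-subunit proteins mutated in human mitochondrial disease, Mrps7 was at 42.2, 46.4 and 42.9 CPM in control TECs, 34.3, 32.8 and 32.4 CPM with TGF-β and 38.2, 38.6 and 42.8 CPM with both agents. Its TGF-β libraries were below all others (-0.41 ± 0.06, adjusted p = 3e-08), whereas in NRK49F its TGF-β difference was 0.06 ± 0.08 (adjusted p = 0.55). Mrps34 was at 15.6, 13.6 and 15.6 CPM in control NRK49F, 22, 20.4 and 18.3 CPM with TGF-β and 26.7, 25.6 and 31 CPM with both agents. It stepped up from group to group with no overlap (0.44 ± 0.11, then 0.45 ± 0.10), and in TECs none of its differences passed the test, the lowest adjusted p being 0.28. Mrps5, beside the mRNA entry, changed by -0.29 with TGF-β and 0.35 with narciclasine in TECs, and by -0.54 and 1.08 in NRK49F.

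Several large-subunit proteins found in mitochondria only were raised with both agents beyond control. Mrpl37 was at 54.2, 52.8 and 50.7 CPM in control TECs, 44.9, 42.8 and 41.4 CPM with TGF-β and 57.1, 60 and 59.2 CPM with both agents. In NRK49F it was at 69.4, 54.7 and 72.5 CPM, then 58.3, 56.6 and 54.9 CPM, then 99.5, 95.8 and 94.3 CPM. The libraries with both agents were the highest in each cell kind (0.45 ± 0.05 and 0.77 ± 0.09 against TGF-β, adjusted p = 4e-10 and 2.1e-06). Mrpl38 in NRK49F was at 38.3, 32.2 and 38.9 CPM in control, 31.9, 36.7 and 38.3 CPM with TGF-β and 70.2, 65.3 and 70.5 CPM with both agents, so the first 2 groups overlapped (0.95 ± 0.09 for narciclasine, adjusted p = 2.4e-07).

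Mrpl50 had that order too in NRK49F, with 11, 9.18 and 10.6 CPM, then 9.24, 8.65 and 10.4 CPM, then 18.8, 21.8 and 23.2 CPM (1.17 ± 0.12 for narciclasine, adjusted p = 7.7e-07). In TECs its narciclasine difference was 0.05 ± 0.06 (adjusted p = 0.48). Mrpl39 was at 10.3, 8.54 and 12.4 CPM in control NRK49F, 5.31, 5.33 and 6.07 CPM with TGF-β and 14.7, 12.6 and 16.5 CPM with both agents, with no overlap (1.39 ± 0.16, adjusted p = 2.3e-06). Mrpl44, which has a fold of ribonuclease III and is mutated in a human cardiomyopathy, changed by -0.56 and 0.58 in NRK49F. Mrpl32, which the m-AAA protease cleaves before it joins the ribosome, changed by -0.51 and 1.11 in NRK49F and differed by 0.11 and -0.08 in TECs, where neither passed the test (adjusted p = 0.27 and 0.48).

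Mrps36 keeps a ribosomal name although its protein belongs to 2-oxoglutarate dehydrogenase. It was at 3.72, 4.56 and 2.26 CPM in control NRK49F and 4.98, 5.33 and 6.78 CPM with TGF-β (0.70 ± 0.24, adjusted p = 0.018), and in TECs the TGF-β difference was -0.18 ± 0.09 (adjusted p = 0.064). Its NRK49F call was lost with total-count scaling (adjusted p = 0.0685) and without the third control (0.083) or the third TGF-β library (0.0858).

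The rat entries mrpl9, mrpl11 and mrpl24, written in lower case, fall outside the rule. Their log2 changes were -0.38, -0.22 and -0.13 with TGF-β, of which the first 2 were called, and 0.95, 0.72 and 0.84 with narciclasine, all called. Among mitochondrial ribosomal proteins under other symbols, Dap3 fell by 0.35 ± 0.05 and Gadd45gip1 by 0.33 ± 0.08 on the log2 scale with TGF-β in TECs, and 4 of 5 such genes fell and 1 rose. In NRK49F with TGF-β 2 rose and 2 fell (median 0.18, but -0.0073 with total-count scaling). With narciclasine 4 of the 5 rose in TECs and 3 in NRK49F, there among them Gadd45gip1 (1.11 ± 0.07) and Ptcd3 (1.03 ± 0.07).

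The wider machinery of mitochondrial translation, taken from textbook lists, changed in the same comparisons. Of all TEC genes, 34.9% fell and 34.1% rose with TGF-β, and 26.8% rose and 25.5% fell with narciclasine. Of all NRK49F genes, 38% fell and 33.7% rose with TGF-β, and 31.6% rose and 31.1% fell with narciclasine. Of 20 mitochondrial aminoacyl-tRNA synthetases, which load tRNAs, 14 fell and 1 rose with TGF-β in TECs (median -0.34), and 16 fell in NRK49F (-0.61). With narciclasine 10 rose and 1 fell in TECs (0.22) and 14 rose in NRK49F (0.83). Sars2, the seryl-tRNA synthetase, changed by -0.80 ± 0.10 and 0.92 ± 0.10 in TECs and by -1.51 ± 0.11 and 1.52 ± 0.11 in NRK49F. Mrps12 starts 172 bases from Sars2 in the mouse, on the other strand.

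Of 28 assembly and rRNA-modifying factors, 15 fell and 1 rose with TGF-β in TECs, and 15 fell and 8 rose in NRK49F. With narciclasine 9 rose and 2 fell in TECs, and 21 rose in NRK49F. Mrm3, a methyltransferase of the large-subunit rRNA, rose by 1.12 ± 0.12 in TECs and 2.20 ± 0.11 in NRK49F. Of 15 translation factors, 9 fell in TECs with TGF-β, and 7 fell and 3 rose in NRK49F, against 38% and 33.7% of all NRK49F genes. With narciclasine 5 rose in TECs and 8 in NRK49F. With TGF-β Oxa1l, the insertase that receives new chains at the inner membrane, changed by -1.34 ± 0.09 in NRK49F.

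Where called, the mRNAs that the mitochondrial ribosome translates moved the other way with TGF-β and with narciclasine. Of the 13 mitochondrially encoded mRNAs, 12 rose with TGF-β in TECs (median 0.46) and 10 fell with narciclasine (-0.47), with mt-Nd5, a complex I subunit, at 0.60 ± 0.05 and -0.75 ± 0.05. Their share of the TEC counts lay between 4.32% and 4.60% in control libraries, between 5.36% and 5.75% in those with TGF-β and between 3.94% and 4.02% in those with both agents, with no overlap. In NRK49F 7 rose with TGF-β and 5 fell with narciclasine, and without the second libraries 11 rose and 11 fell. Their share of the NRK49F counts was 2.85% to 3.01% in control, 2.13% to 3.77% with TGF-β and 2.03% to 2.75% with both agents. The TGF-β libraries thus overlapped the other groups, and the second of them was below every control. Transcripts of the nuclear respiratory chain subunits fell in TECs with TGF-β, 43 of 79 with 2 rising. In NRK49F 29 of 73 fell, close to the 38% of all genes, and 16 rose (median -0.08). Without the second libraries 26 went each way (median 0.03).

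Cytosolic ribosomal protein genes are given beside the mitochondrial ones without a test of the difference. In TECs with TGF-β 18 of 80 rose and 5 fell (median 0.03), smaller shares than the 34.1% and 34.9% of all genes. With total-count scaling 1 rose and 32 fell (-0.10). In NRK49F 32 of 73 rose and 2 fell with TGF-β (58 and 2 without the second libraries), where 33.7% and 38% of all genes did. With narciclasine 30 rose and 2 fell, where 31.6% and 31.1% of all genes did. Against control, 52 of the 73 were higher and 1 lower with both agents in NRK49F (median 0.49), against 33.4% of all genes each way. The TEC median with both agents against control was 0.06, and -0.04 with total-count scaling.

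**Figure D5:**
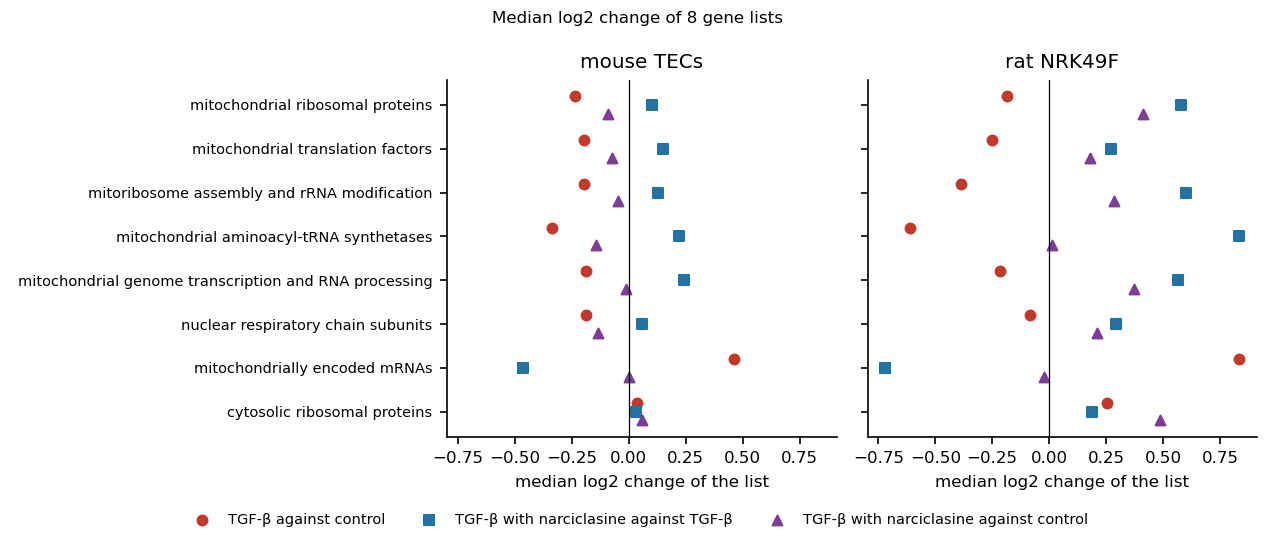
Median log2 change (TMM-scaled) of the mitochondrial ribosomal protein genes and 7 other gene lists in TECs (left) and NRK49F (right) for TGF-β against control (circles), both agents against TGF-β (squares) and both agents against control (triangles). The lists of mitochondrial translation lie below 0 with TGF-β and above 0 with narciclasine, and the mitochondrially encoded mRNAs lie on the opposite sides; with total-count scaling the TEC median of cytosolic ribosomal proteins with TGF-β turns from 0.03 to -0.10.

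Genes for the known activators moved unevenly, and only part of this list is named here. Of 10 such genes in TECs, 5 fell and 2 rose with TGF-β, with log2 changes between -2.37 and 0.30. The 2 that rose are not named for TECs, so the genes named there lean to those that fell. With narciclasine 5 of the 10 rose and 1 fell. In TECs with TGF-β Nrf1 changed by -0.40 ± 0.06, from a mean of 35.2 to 26.5 CPM, and by 0.37 ± 0.06 with narciclasine to 34.3 CPM. Gabpb2, a subunit partner of the ETS factor GABP, changed by -0.95 ± 0.05 and 0.63 ± 0.05, while Gabpa, which binds DNA, differed by 0.02 ± 0.04 and -0.04 ± 0.04 (adjusted p = 0.62 and 0.39). Pprc1, a coactivator of the PGC-1 family, changed by -0.36 ± 0.05 and 0.57 ± 0.05. Ppargc1a, which encodes PGC-1α, fell from 8.38 to 1.61 CPM (-2.37 ± 0.16) and was at 2.09 CPM with both agents (adjusted p = 0.13 against TGF-β alone).

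In NRK49F the order was different. Of 9 tested genes of this list, 4 rose and 3 fell with TGF-β, and 3 rose and 2 fell with narciclasine. Myc, a growth regulator with many ribosome-related targets, changed by 2.27 ± 0.12 with TGF-β, from 39.7 to 192 CPM, and was at 204 CPM with both agents. Pprc1 rose by 0.58 ± 0.10 with TGF-β and by a further 0.77 ± 0.10 with narciclasine, from 93.5 to 140 and 239 CPM. Nrf1 changed by -0.27 ± 0.10 with TGF-β (adjusted p = 0.021) and differed by 0.19 ± 0.10 with narciclasine (adjusted p = 0.1).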

How the data were processed

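Poly(A) RNA was measured in 18 libraries, 3 in each of 6 groups. Per the submitters' processing notes, the tools were HISAT2 2.1.0, featureCounts and DESeq2 with mm10 for mouse. For rat, no build was named (not given in the sources used here). Deposited values were unnormalized counts of reads per gene, in 1 table per cell kind, with totals given in the report. Their precision is limited by n = 3 and, for low genes, by counting.

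Groups were taken from the sample titles. Each table was fitted over its 9 libraries with edgeR 4.0.16 (limma 3.58.1, R 4.3.3): genes kept by filterByExpr, TMM scaling, robust dispersions, quasi-likelihood tests, Benjamini-Hochberg adjustment over all tested genes and a threshold of 0.05. SE is the log2 change over the square root of F. Changes above 1.2-fold used glmTreat. Differences between cell kinds were interaction terms in 1 fit over 18 libraries, on symbols found once in each table. The model script was tested on simulated data. Correlations and promoter searches used Python 3.11.15 with pandas 2.3.3 and scipy 1.17.1, and figures matplotlib 3.10.9. Coordinates and exon lengths are from GENCODE vM21, promoters from RefSeq GRCm38.p6, neither with rat values.

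Genes were named if they were, in a comparison, among the 5 largest called changes each way with no overlap between groups, among the 4 highest or 2 lowest in level, among the 4 largest differences each way between cell kinds, changed in opposite directions, or on a preset list with known roles. From other lists up to 3 changed genes each way were eligible. The genes and lists were chosen with earlier results of these data known, so their directions are not independent evidence. Alternatives were DESeq2 1.42.0, RLE and total-count scaling, no filter, an adjusted p of 0.01, 2 groups only, summed duplicate entries, a replicate block, omission of single libraries and omission of the second NRK49F libraries. Ignoring letter case in the symbols was chosen after seeing the data.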

Additional observations from a re-analysis of the deposited data

Results flagged for a closer look

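The results singled out here are differences between the cell kinds, each an interaction term over 18 libraries given as the NRK49F minus the TEC log2 change, and each with an adjusted p under 0.05 by edgeR's quasi-likelihood test. For the TGF-β effect, the difference was 1.69 for Mrpl12, 1.39 for Mrps6, 1.01 for Mrpl18 and 1.00 for Mrpl20. It was -0.78 for Mrpl52, -0.89 for Mrpl10, -1.06 for Mrpl13 and -1.22 for Mrpl47. For the narciclasine effect in TGF-β-treated cells, the difference was 1.87 for Mrpl47, 1.58 for Mrpl49, 1.15 for Mrpl39 and 1.12 for Mrpl32. It was -0.91 for Mrpl14 (adjusted p = 0.00044), -0.45 for Mrps16 (adjusted p = 0.04) and -0.30 for Mrpl28 (adjusted p = 0.037). The calls of Mrps16 and Mrpl28 were lost when single libraries were left out, with adjusted p up to 0.237 and 0.281. Species, cell kind and the counting in each table cannot be told apart in these differences.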

How the results depend on the processing

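The direction of each median and the side on which more genes were called held under every alternative run for the 6 comparisons. Except in NRK49F with both agents against control, total-count scaling shifted all genes to the side of the median and could not turn it. Counts that moved by over 1.5 times were mostly small. At an adjusted p under 0.01, rising genes in TECs with TGF-β came to 0, falling genes with narciclasine to 3 in TECs and 1 in NRK49F, genes above control in TECs to 2, and genes with a lower narciclasine effect in NRK49F to 2. Beyond 1.2-fold (glmTreat), TECs had 0 up and 20 down with TGF-β, 9 up and 1 down with narciclasine, and 0 up and 11 down for both agents against control. NRK49F had 8 up with TGF-β and 1 down with narciclasine, and the lower differences between cell kinds came to 12 for TGF-β and 2 for narciclasine. With total counts, TECs had 0 up with TGF-β (median -0.37), 3 down with narciclasine (0.13) and 1 up against control (-0.19), and NRK49F had 7 up with TGF-β (-0.37) and medians of 0.65 with narciclasine and 0.30 against control. The differences between cell kinds then had medians of 0.018 for TGF-β and 0.51 for narciclasine, the latter with 2 lower. Without a filter, 3 TEC genes were above control, and the narciclasine difference had 2 lower and a median of 0.48. DESeq2 gave 1 up with TGF-β, 4 down with narciclasine and 3 above control in TECs and 2 lower narciclasine differences, as did RLE scaling (2). Without the second NRK49F libraries, the medians were 0.64 for narciclasine and 0.47 for its difference between cell kinds. The cause of these shifts was not tested.

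Leaving out single libraries, TECs had 0 to 3 up and 47 to 53 down with TGF-β (median -0.26 to -0.23), 22 to 31 up and 4 to 7 down with narciclasine (0.064 to 0.13), and 3 to 6 up and 25 to 32 down against control (-0.13 to -0.071). NRK49F had 9 to 15 up and 29 to 33 down with TGF-β (-0.19 to -0.16), 45 to 53 up and 1 to 2 down with narciclasine (0.53 to 0.65), and 43 to 50 up and 2 to 3 down against control (0.38 to 0.47). Between cell kinds, 20 to 27 TGF-β effects were higher and 16 to 20 lower in NRK49F (0.019 to 0.13), and 38 to 46 narciclasine effects higher and 2 to 5 lower (0.35 to 0.52).

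Same-numbered libraries did not deviate together (correlations -0.10 to 0.17 in TECs and -0.04 to 0.12 in NRK49F, with 1 of 9 pairs over 0.1 in each). Correlations from 3 libraries per group cannot exclude a pairing, and the second NRK49F library of each group stood apart. With the replicate block, TECs had 2 up and 53 down with TGF-β and NRK49F 13 and 34, and of 424 results on named genes 1 was lost and 1 gained. Of those 424, 24 were lost and 2 gained with DESeq2, 8 and 5 with RLE, 8 and 4 without a filter, and 29 and 32 with total counts. Summing duplicate entries changed none of the calls compared, but there were only 76 rat entries for 75 symbols and no duplicates in TECs. Ignoring letter case in the symbols used the same fit, so it could not change a call.

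Rat gene lengths and coordinates were not used here, and counts under about 5 CPM, as for rat Mrps6 and Mrpl53, leave the widest errors.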
